A study of Mus musculus with 6 samples.

Results

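Collagen chains other than type II were followed in the RNA-Seq values of mouse MC3T3-E1 cells with and without PAKG MPs. The members were all genes named Col, a number, the letter a and a number, with Col2a1 left out, which gave 40 of the 26187 genes listed. By class these were 10 fibrillar chains, 8 FACIT chains (fibril-associated collagens with interrupted triple helices), 9 network-forming chains and 13 others. Col9a1, Col13a1 and Col6a6 were not analysed here. Levels are in FPKM, which scales the fragments of a gene to the length of its transcript and the depth of the library, so they can be compared between genes. Of the 40 chains, 24 averaged 0.5 FPKM or more across libraries and were tested among 12590 such genes, and 16 were below it.

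MC3T3-E1 is a pre-osteoblast line from mouse calvaria. All 6 samples were kept in osteoconductive (OC) medium with serum, β-glycerophosphate and an ascorbic acid supplement, the cofactor that collagen hydroxylases need. The PAKG group (n = 3) also received 30 μg/mL of PAKG–8diol–PEG(S) MPs for 2 days, which are small microparticles of a polyester of α-ketoglutarate, 1,8-octanediol and polyethylene glycol, and the OC group (n = 3) received no MPs. These 6 samples include no group given MPs of another polymer, and a single line was used. The methods mention wells in triplicate for cell culture in general, but for RNA-Seq they do not state whether the 3 samples of a group were separate wells, cultures or repeats, so each p-value reflects just the variation among these samples, and that variation may be technical.

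Collagen chains fold in threes into a triple helix in the endoplasmic reticulum after prolyl and lysyl hydroxylation, and are then exported, trimmed and crosslinked outside the cell. Fibrillar collagens build the fibrils of bone, skin, tendon and cartilage, FACIT chains sit on fibril surfaces, and network-forming chains make sheets such as those of basement membranes. Osteoblasts secrete type I collagen as the main protein of bone matrix, with types III, V and XI as minor fibril partners.

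The markers of the labelled cell type were present. Of 9 osteoblast markers, 7 had a mean of at least 0.5 FPKM, and their summed level, most of which was Col1a1, was 3287 to 3929 FPKM in the OC libraries and 4769 to 5132 FPKM in the PAKG libraries. Col1a1 is itself a member. Spp1, the next most abundant of these markers, went the other way, with 242 to 288 FPKM in OC and 173 to 208 FPKM in PAKG. The remaining markers at that level were higher in every PAKG library than in any OC library. Runx2 had 14.55 to 16.74 FPKM in OC and 25.81 to 29.34 FPKM in PAKG, and Sp7 33.06 to 35.16 and 84.17 to 90.9 FPKM. Alpl had 2.09 to 2.37 and 6.47 to 7.74 FPKM, Bglap 0.67 to 1.02 and 17.47 to 20.33 FPKM, and Ibsp 87.26 to 93.22 and 123.4 to 130.4 FPKM. Phex and Dmp1 stayed under 0.5 FPKM. Of 8 chondrocyte markers, 5 reached that level, with sums of 20.6 to 23.1 FPKM in OC and 65.0 to 68.0 FPKM in PAKG; Col2a1, the type II chain left out of the members, made up most of this and rose from 11.1 ± 0.759 to 46.2 ± 1.03 FPKM (SD, n = 3 in each group). No adipocyte, endothelial or epithelial marker had a mean of 0.5 FPKM, although Fabp4, an adipocyte marker, was 0.58 FPKM in OC replicate 3. Adipocyte markers summed to 0.02 to 1.5 FPKM in OC and 0 to 0.07 FPKM in PAKG, the highest sum being that of OC replicate 3. Of 4 macrophage markers, 2 reached it, and the sums were 9.21 to 12.1 FPKM in OC and 16 to 17.6 FPKM in PAKG. Most of this was Lyz2, with 8.51 to 11.46 FPKM in OC and 15.22 to 16.95 FPKM in PAKG. Cd68, the other that reached it, overlapped between the groups (0.52 to 0.63 and 0.34 to 0.69 FPKM). Ptprc, carried by all white blood cells, was at most 0.01 FPKM. Of 4 skeletal muscle markers, 1 reached 0.5 FPKM (Acta1), with sums of 0.31 to 0.49 FPKM in OC and 1.1 to 1.16 FPKM in PAKG. The part of the chondrocyte, macrophage and muscle markers in the collagen results was not tested.

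Replicate 2 stood apart in both groups, and this bears on collagens because their transcripts are long. Over 10721 tested genes, the deviation of replicate 2 from the mean of the other two replicates of its group followed the length of the longest coding transcript, with Spearman's rho of 0.699 in PAKG and 0.695 in OC, a description across genes that share libraries. The median deviation on the log2 scale went from -0.31 in PAKG and -0.21 in OC for the shortest 10% of genes to 0.32 in both groups for the longest 10%. The 24 collagen chains have a median length of 6083 nt against 3141 nt over all these genes, and 20 of them are among the longest 20%. Their median deviation was 0.21 in PAKG and 0.27 in OC, and 23 of 24 were positive in each group. The source of this difference was not tested.

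**Figure D1:**
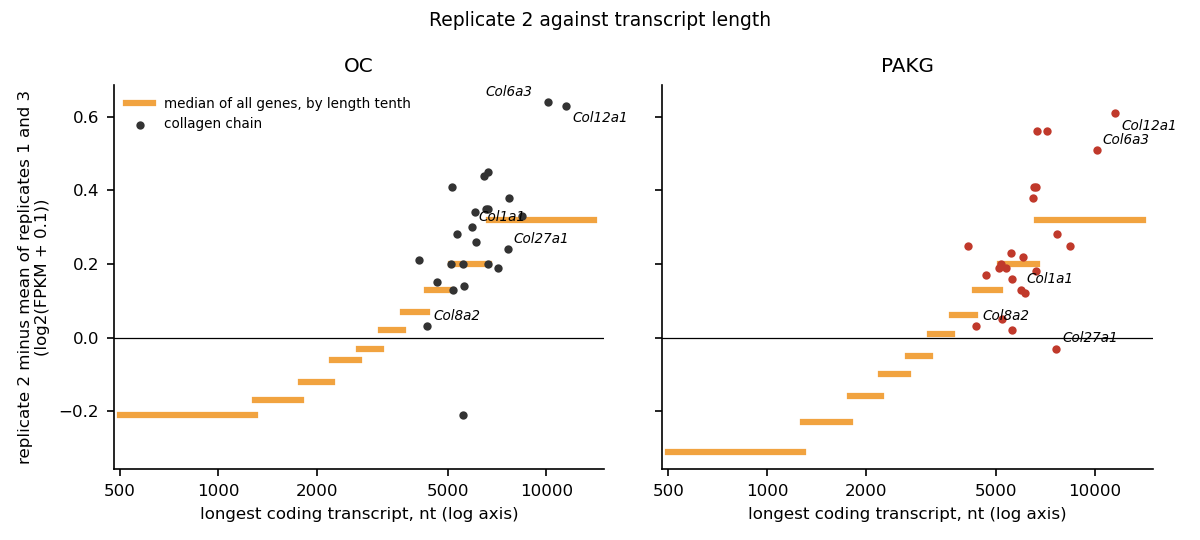
Deviation of replicate 2 from the mean of replicates 1 and 3, on log2(FPKM + 0.1), against the length of the longest coding transcript (log axis) in OC and PAKG. Orange bars are medians of all tested genes in 10 bins of length (the outer bins are clipped at the axis ends) and points are the 24 collagen chains, which sit at the long end and above 0 with 1 exception in each group (Col27a1 in PAKG, Col17a1 in OC).

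The replicate numbers 1 to 3 of the labels were also compared across groups. Samples with the same number deviated from their group means together, with correlations over all tested genes of 0.24, 0.43 and 0.192, whereas those with different numbers gave -0.312 to 0.138. These correlations include the replicate 2 pattern above and were not separated from it. Numbers 1 and 3 were only weakly told apart: PAKG replicate 3 gave 0.192 with OC replicate 3 and 0.138 with OC replicate 1. Results are given from limma without the number as the main values, and with the number as a replicate block where this changes a call. The block rests on these same values, and its fit has fewer residual degrees of freedom than the main fit.

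Collagen transcripts took a larger share of the summed FPKM in PAKG. All members together held 2.04%, 2.63% and 1.94% in OC replicates 1, 2 and 3 and 2.83%, 3.46% and 2.91% in PAKG replicates 1, 2 and 3. Replicate 2 was the highest in both groups, and the groups did not overlap. The mean went from 2.20 ± 0.371% to 3.06 ± 0.343% (SD, n = 3), 1.39 times as much, with a 2-sided exact permutation p = 0.1, the smallest p that 3 against 3 allows (adjusted p = 0.15 over 6 shares). Fibrillar chains went from 1.84 ± 0.308% to 2.61 ± 0.274% and network-forming chains from 0.0478 ± 0.00586% to 0.0680 ± 0.00668%, again with no overlap and exact permutation p = 0.1. Most of the network rise lay in Col8a2, whose mean was 64.8 FPKM in OC and 120.6 FPKM in PAKG. Col4a2 went from 9.24 to 11.04 FPKM, and Col8a1, Col4a1, Col4a5 and Col4a6 had log2 fold changes of -0.05 to 0.08. The FACIT share (0.0439 ± 0.00977% in OC, 0.0597 ± 0.0117% in PAKG) and the share of the other chains (0.270 ± 0.0478% in OC, 0.321 ± 0.0511% in PAKG) overlapped between the groups, each with exact permutation p = 0.3. Within the same-numbered pairs all 6 shares were higher in PAKG in 3 of 3 pairs, with an exact paired permutation p = 0.25, the smallest that 3 pairs allow.

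Type I collagen made up most of this. Col1a1 and Col1a2 together accounted for 71.4% of the members' summed FPKM in OC and 74.0% in PAKG. The members' sum went from 6848.8 ± 803.4 to 9246.0 ± 670.5 FPKM, and 81.2% of that difference lay in these type I chains. Col1a1 ranked 4 and Col1a2 ranked 13 among all genes by mean FPKM, Col3a1 ranked 55 and Col6a1 ranked 66. The 24 tested chains ran from 3765.8 FPKM (Col1a1) to 0.558 FPKM (Col17a1) in their mean over the 6 libraries.

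**Figure D2:**
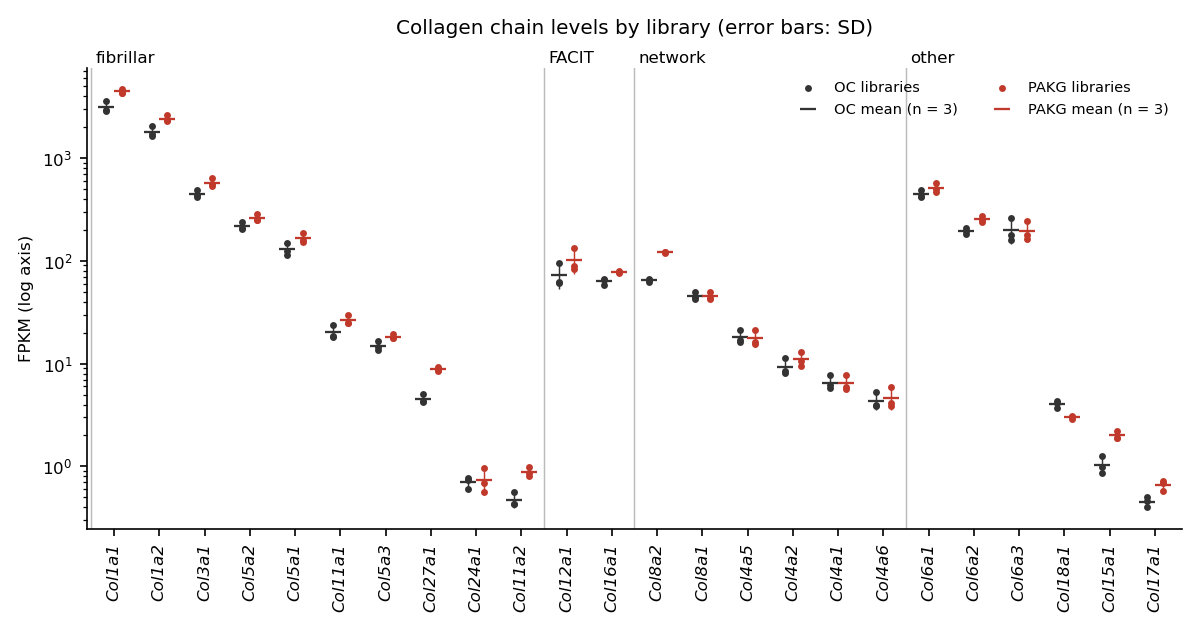
FPKM (log axis) of the 24 tested collagen chains in each library, by class and in order of mean level. Points are libraries, dashes are group means and error bars are SD (n = 3 in OC, n = 3 in PAKG); Col8a2, Col27a1, Col15a1 and Col11a2 show the widest gaps between the groups, while the libraries of Col8a1, Col4a1, Col4a5, Col6a3 and Col24a1 overlap, with log2 fold changes of -0.05 to 0.04.

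Of the 24 tested chains, 7 rose with PAKG MPs and 1 fell (limma on log2(FPKM + 0.1), Benjamini-Hochberg adjusted p under 0.05). Over all tested genes, 5.97% were called higher and 8.73% lower. The chains that rose were Col1a1, Col11a2 and Col27a1 (fibrillar), Col16a1 (FACIT), Col8a2 (network), Col6a2 (beaded filament) and Col15a1 (multiplexin), and the chain that fell was Col18a1 (multiplexin). At an unadjusted p under 0.05, 14 were higher and 1 lower, against 12.0% and 16.8% of all genes. In this limma fit 0 chains passed the 2-fold threshold that the study used as well, against 0.866% of all genes higher and 0.58% lower. With each library rescaled to the same total, 6 chains were higher and 0 lower, against 6.91% and 6.04% of all genes, and with median-ratio scaling 9 were higher and 1 lower, against 6.97% and 7.74%. The median log2 fold change was 0.34 over the 24 chains and -0.03 over all tested genes, and 19 of 24 were above 0 against 44.5% of all genes. Col11a2 and Col17a1 had OC means under 0.5 FPKM and so entered the test through their PAKG values. Without them 6 of 22 were higher and 1 lower. At an unadjusted p under 0.05, 12 of these 22 were higher and 1 lower, and their median log2 fold change was 0.30.

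With the replicate block, 16 of 24 chains were higher and 1 lower, against 12.3% and 17.1% of all genes. The 9 chains that passed with the block but not in the main fit were Col1a2, Col3a1, Col5a1, Col5a2, Col5a3, Col11a1, Col12a1, Col6a1 and Col4a2. Each of them also passed without the block when values were adjusted for transcript length (limma adjusted p up to 0.0357). That adjustment was added after the data were seen. It also raised their log2 fold changes, that of Col5a2 from 0.26 to 0.33. The share of all genes called in that fit is not given here, so these passes cannot be set against a background. The block together with an adjustment for transcript length, added after the data were seen, also called 16 higher and 1 lower, against 14.8% and 14.6% of all genes. Without replicate 2 of both groups, 13 were higher and 1 lower, against 9.56% and 12.3% of all genes. In 14 of 24 chains all PAKG values exceeded all OC values and in 1 they were all below, against 13.7% and 19.6% of all genes. In 17 of 24 chains PAKG was higher in all 3 same-numbered pairs, against 26.0% of all genes. Col11a2 and Col17a1 entered the test through their PAKG values, and without them 15 of 22 chains were higher with the block and 1 lower. Of these 22, 12 had all PAKG values above all OC values and 1 all below, and 15 were higher in all 3 pairs. The shares of all genes above did not leave out those that entered the test through the values of a single group. No shares restricted in that way are given here, so the counts among these 22 chains cannot be set against a matching background.

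**Figure D3:**
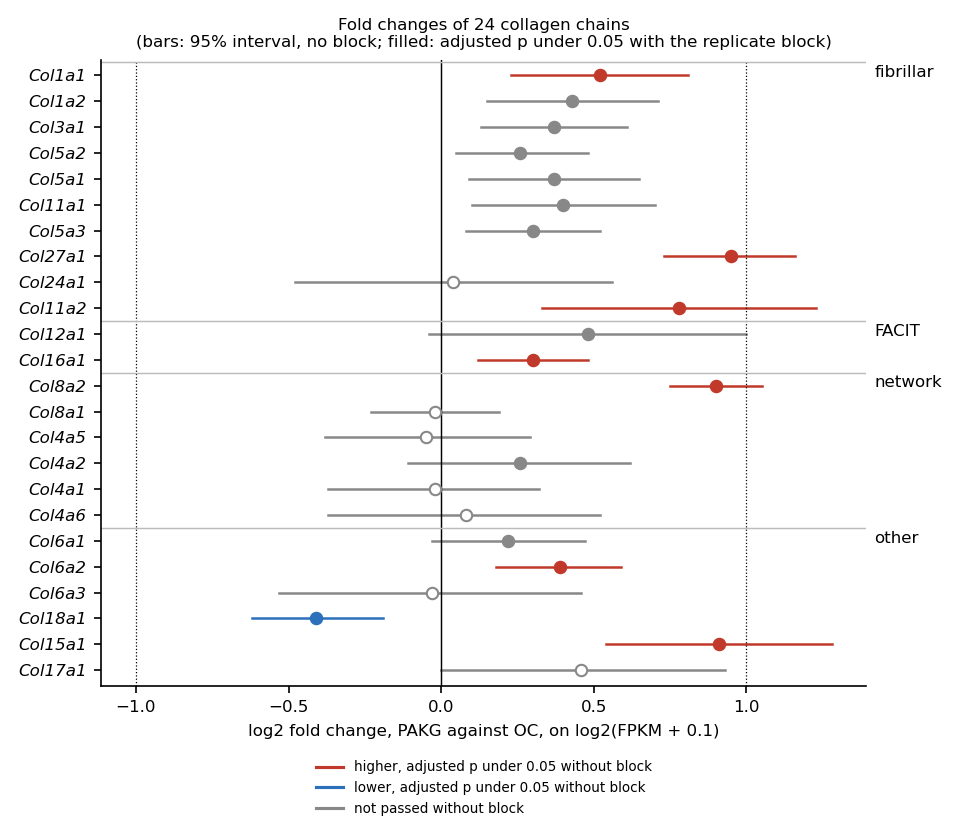
Log2 fold change of PAKG against OC for the 24 tested collagen chains, by class, with 95% intervals from limma without the block. Red chains rose and blue fell (adjusted p under 0.05), grey chains did not pass, and filled points passed with the replicate block; the fibrillar chains lie to the right of 0, while Col8a1, Col4a1, Col4a5, Col4a6 and Col6a3 lie near 0.

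**Figure D4:**
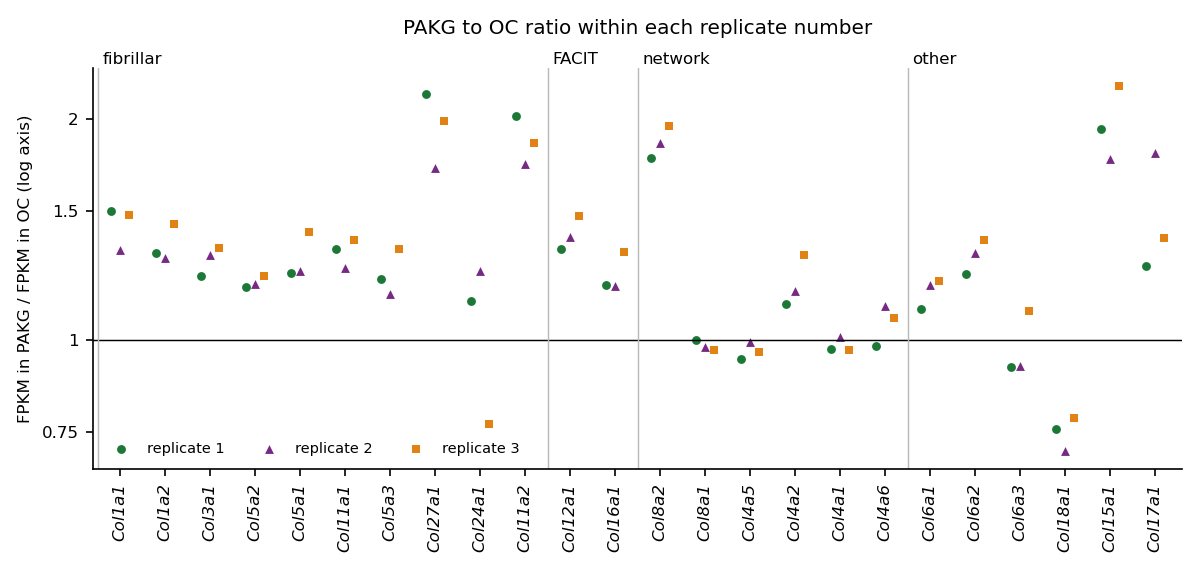
Ratio of PAKG to OC FPKM within each replicate number (log axis), for the same chains. Each symbol is a same-numbered pair; all 3 pairs lie above 1 for 9 of 10 fibrillar chains, and all 3 lie below 1 for Col18a1 and Col4a5.

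The promoters of the 4 chains with the largest rises are shown because these chains, from 3 classes (Col27a1 and Col11a2 are both fibrillar), had the largest log2 fold changes of the 24. Each is the 250 bases before the RefSeq start on GRCm38.p6, on the plus strand, at chr4:126286544-126286793 (Col8a2), chr4:63215162-63215411 (Col27a1), chr4:47207762-47208011 (Col15a1) and chr17:34038888-34039137 (Col11a2). The Col27a1 window lies inside the gene's span in GENCODE M21, outside its annotated exons. Capitals mark the GC box GGGCGG or its reverse CCGCCC, and the TATA box TATAAA.
Col8a2: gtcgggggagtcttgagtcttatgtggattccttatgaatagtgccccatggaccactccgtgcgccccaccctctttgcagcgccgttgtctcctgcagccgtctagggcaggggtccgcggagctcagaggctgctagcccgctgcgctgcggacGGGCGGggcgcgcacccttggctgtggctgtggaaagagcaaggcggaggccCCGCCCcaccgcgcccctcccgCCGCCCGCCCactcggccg
Col27a1: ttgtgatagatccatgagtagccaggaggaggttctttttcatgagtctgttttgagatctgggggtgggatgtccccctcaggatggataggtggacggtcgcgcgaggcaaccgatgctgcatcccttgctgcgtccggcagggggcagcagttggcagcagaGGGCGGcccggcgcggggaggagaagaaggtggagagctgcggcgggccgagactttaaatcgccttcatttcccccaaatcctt
Col15a1: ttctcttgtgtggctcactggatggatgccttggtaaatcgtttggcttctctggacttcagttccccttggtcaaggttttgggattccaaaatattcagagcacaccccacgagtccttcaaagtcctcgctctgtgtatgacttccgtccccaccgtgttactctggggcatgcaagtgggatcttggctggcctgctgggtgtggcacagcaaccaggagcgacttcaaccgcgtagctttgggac
Col11a2: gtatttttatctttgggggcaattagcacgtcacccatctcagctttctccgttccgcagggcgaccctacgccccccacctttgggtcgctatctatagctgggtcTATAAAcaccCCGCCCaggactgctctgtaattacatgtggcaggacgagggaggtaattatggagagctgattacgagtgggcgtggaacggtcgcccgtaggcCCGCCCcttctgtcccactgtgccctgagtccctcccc
Of these 4 windows, Col8a2 held 4 GC boxes, the last 2 overlapping each other, Col27a1 held 1, Col11a2 held 2 and a TATA box, and Col15a1 held none of the motifs searched.

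Promoters were found for 21 of the 24 tested chains (23 promoters, since some genes have more than 1 start), and Col1a1, Col5a2 and Col12a1 had no entry. The GC box stood in 15 of the 23 (65.2%) against 32.7% of 32817 mouse promoters of the same length, beside a median GC content of 59.6% against 52.4%. The CCAAT box (CCAAT or ATTGG) stood in 9 of 23 (39.1%) against 33.8%. The TATA box (TATAAA or TTTATA) stood in 3 of 23 (13.0%) against 12.4%, and the core TGTGGT or ACCACA, bound by Runx factors, in 3 of 23 (13.0%) against 14.0%. Such matches describe the letters of these windows and are neither binding sites nor causes.

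Of the 10 fibrillar chains, 3 rose in the fit without the block and 9 passed with it, against 5.97% and 12.3% of all genes. Col11a2, among the 3, reached the test level only through its PAKG values. All 10 had a log2 fold change above 0, with a median of 0.38. Col1a1, which gives the pro-α1 chain of type I collagen (chromosome 11, 94936224 to 94953042, GRCm38), had 2859, 3539 and 2905 FPKM in OC replicates 1, 2 and 3 and 4286, 4697 and 4308 FPKM in PAKG. Every PAKG library exceeded every OC library, and replicate 2 was the highest in each group. It rose by 0.52 on the log2 scale (standard error 0.12, adjusted p = 0.0296), and the 4 fits without replicate 1 or 3 of either group lost the call (adjusted p up to 0.117), as did the fit with no filter on low values (adjusted p = 0.473).

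Col1a2, the pro-α2 chain of the same trimer (chromosome 6, 4504814 to 4541544), had 1723, 2028 and 1615 FPKM in OC and 2268, 2621 and 2327 FPKM in PAKG. The groups did not overlap. The log2 fold change of 0.43 (standard error 0.12) missed the threshold in the main fit (limma adjusted p = 0.0531) and passed with the block (limma adjusted p = 0.0069).

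Col3a1, the chain of type III collagen that co-assembles with type I in young fibrils (chromosome 1, 45311538 to 45349706), had 436, 489 and 416 FPKM in OC and 534, 639 and 555 FPKM in PAKG. These values did not overlap either. The log2 fold change was 0.37 (standard error 0.10, limma adjusted p = 0.0542, 0.0059 with the block).

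Type V chains nucleate and limit the width of type I fibrils. Col5a1 had 124, 150 and 114 FPKM in OC and 153, 186 and 160 FPKM in PAKG. Col5a2, on chromosome 1 beside Col3a1 on the opposite strand with 24614 nt between them, had 208, 236 and 204 FPKM in OC and 247, 282 and 250 FPKM in PAKG. Each group of 3 was clear of the other for both chains, although the lowest PAKG value and the highest OC value were close. Their log2 fold changes were 0.37 for Col5a1 (limma adjusted p = 0.0843, 0.0070 with the block) and 0.26 for Col5a2 (limma adjusted p = 0.0998, 0.00979 with the block). Col5a3, a less abundant chain of this type, went from a mean of 14.9 ± 1.68 to 18.3 ± 0.925 FPKM (log2 fold change 0.30, limma adjusted p = 0.0762, 0.0141 with the block).

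Type XI chains are the minor fibril chains of cartilage and also occur outside it. Col11a1 (chromosome 3, 114030540 to 114220718) went from a mean of 20.1 ± 3.23 to 26.4 ± 3.02 FPKM, a difference of 0.40 on the log2 scale (limma adjusted p = 0.0844, 0.00359 with the block). Col11a2 (chromosome 17, 34039437 to 34066685), its partner, had 0.43, 0.57 and 0.43 FPKM in OC and 0.87, 0.99 and 0.80 FPKM in PAKG. The gap between the groups was wider than either group's range. It rose by 0.78 (standard error 0.19, adjusted p = 0.0351), but it is also among the chondrocyte markers above, and 5 of the 6 fits without a library, all but that without OC replicate 2, lost the call (adjusted p up to 0.116).

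Col27a1 and Col24a1 are the fibrillar chains of a separate, later described branch of the family, and they differed from each other. Col27a1, known from cartilage (chromosome 4, 63214004 to 63334991), had 4.30, 5.05 and 4.24 FPKM in OC and 9.32, 8.67 and 8.44 FPKM in PAKG. The lowest PAKG value was well above the highest OC value. It rose by 0.95 (standard error 0.09, adjusted p = 0.000928), with PAKG 1.72 to 2.17 times OC within the same-numbered pairs, and kept the call in all 6 fits without a library. Col24a1, reported in developing bone, had a mean of 0.71 ± 0.0889 FPKM in OC and 0.743 ± 0.205 FPKM in PAKG, with overlapping libraries and a log2 fold change of 0.04 (95% interval -0.48 to 0.56, limma adjusted p = 0.941).

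Among FACIT chains, only Col12a1 and Col16a1 reached the test level. Col16a1 (chromosome 4, 130047840 to 130099283), which associates with fibrils and with fibrillin-containing networks, had 65.2, 66.9 and 57.5 FPKM in OC and 77.5, 79.3 and 76.0 FPKM in PAKG. The groups did not overlap, and the PAKG values were tightly grouped. It rose by 0.30 (standard error 0.08, adjusted p = 0.0404), a call lost in 5 of the 6 fits without a library, all but that without OC replicate 2 (adjusted p up to 0.138). The call was also lost with rescaling to a common total (limma adjusted p = 0.0564), without the mean-variance trend (0.0668) and with no filter on low values (0.0763).

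Col12a1, which bridges type I fibrils in bone and tendon (chromosome 9, 79598991 to 79718831), had 62.1, 95.3 and 60.7 FPKM in OC and 82.8, 132 and 89.7 FPKM in PAKG. Replicate 2 stood far above the others in both groups, 1.55 and 1.53 times their mean in OC and PAKG, and the groups overlapped. Its longest coding transcript, at 11511 nt, is the longest of the 24. The log2 fold change of 0.48 (standard error 0.22) did not pass in the main fit (limma adjusted p = 0.206), whereas with the block it passed at limma adjusted p = 0.0022, PAKG being 1.33 to 1.48 times OC in the 3 same-numbered pairs.

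The network-forming class was divided. Col8a2, a short chain of type VIII collagen that forms hexagonal lattices (chromosome 4, 126286793 to 126314330), had 66.8, 65.6 and 61.9 FPKM in OC and 118, 122 and 121 FPKM in PAKG. The 3 values of a group nearly coincided, replicate 2 included, and the groups were far apart. It rose by 0.90 (standard error 0.06, adjusted p = 0.000344), the smallest adjusted p of the 24 chains, with 0 of 6 calls lost when a library was left out. Col8a1, the other chain of type VIII collagen (chromosome 16, 57624258 to 57754737), had 42.8, 50.2 and 44.6 FPKM in OC and 42.8, 49.2 and 43.2 FPKM in PAKG. Its groups covered the same range, with a log2 fold change of -0.02 (95% interval -0.23 to 0.19, limma adjusted p = 0.897). The sign of that value changed with the scaling, to 0.02 with rescaling to a common total.

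Type IV chains form the sheet of basement membranes. Col4a1 and Col4a2, whose genes lie head to head on chromosome 8 and overlap by 22 nt at their starts, encode the chains of the common type IV trimer. Col4a1 had a mean of 6.55 ± 0.984 FPKM in OC and 6.45 ± 1.12 FPKM in PAKG (log2 fold change -0.02, 95% interval -0.37 to 0.32). Col4a2 had 9.24 ± 1.71 and 11.04 ± 1.86 FPKM (log2 fold change 0.26, 95% interval -0.11 to 0.62, limma adjusted p = 0.338, 0.0288 with the block). Leaving out PAKG replicate 2 gave a log2 fold change of 0.13 for Col4a2, leaving out OC replicate 3 gave 0.17, and leaving out OC replicate 2 gave 0.40. It did not pass without replicate 2 of both groups (limma adjusted p = 0.0563). Col4a5 and Col4a6 are another head-to-head pair, on chromosome X with 1308 nt between them, and neither passed. Col4a5 had 18.1 ± 2.62 FPKM in OC and 17.5 ± 3.02 FPKM in PAKG (95% interval of the log2 fold change -0.38 to 0.29), and Col4a6 4.37 ± 0.839 and 4.65 ± 1.14 FPKM (95% interval -0.37 to 0.52). Col4a3 and Col4a4, a further such pair, stayed at or under 0.02 FPKM in every library.

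Among the remaining classes, the type VI chains, which form beaded filaments around cells, were the most abundant. Col6a2 (chromosome 10, 76595762 to 76623630) had 194, 208 and 181 FPKM in OC and 239, 274 and 248 FPKM in PAKG. The groups did not overlap. It rose by 0.39 (standard error 0.09, adjusted p = 0.0257), and the fits without PAKG replicate 3, OC replicate 1 or OC replicate 3 lost the call (adjusted p up to 0.105).

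Col6a1, its neighbour on the same strand, had 424, 484 and 414 FPKM in OC and 468, 575 and 500 FPKM in PAKG. OC replicate 2 lay above PAKG replicate 1. The log2 fold change of 0.22 (standard error 0.11) had a limma adjusted p of 0.226, or 0.0286 with the block. Col6a3, the large chain of the type VI trimer (chromosome 1, 90765923 to 90843971), had 176, 262 and 161 FPKM in OC and 162, 241 and 176 FPKM in PAKG. Replicate 2 was again far above the others in both groups, and the groups overlapped throughout, with a log2 fold change of -0.03 (95% interval -0.53 to 0.46, limma adjusted p = 0.941, 0.729 with the block). Its sign also depended on the scaling (0.01 with rescaling to a common total).

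The multiplexins Col15a1 and Col18a1, proteoglycan collagens of basement membrane zones, moved in opposite directions. Col15a1 (chromosome 4, 47208161 to 47313167) had 0.98, 1.25 and 0.86 FPKM in OC and 1.90, 2.21 and 1.91 FPKM in PAKG. The groups were clearly apart. It rose by 0.91 (standard error 0.16, adjusted p = 0.00931), with 0 of 6 calls lost when a library was left out. Col18a1, the source of the fragment endostatin (chromosome 10, 77052178 to 77166548), had 4.12, 4.31 and 3.71 FPKM in OC and 3.12, 3.05 and 2.91 FPKM in PAKG. Every PAKG value was below every OC value. It fell by 0.41 on the log2 scale (standard error 0.09, adjusted p = 0.0241), a call lost in 4 of the 6 fits without a library, PAKG replicate 1 or 3 or OC replicate 1 or 2 (adjusted p up to 0.111), and with rescaling to a common total (adjusted p = 0.0872). Its gene overlaps Slc19a1 on the opposite strand, whose mean was 6.23 FPKM; the kit keeps strand, but whether the quantification used it is not given in the sources used here.

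Col17a1, the transmembrane chain of hemidesmosomes in epithelia, had a mean of 0.453 ± 0.0503 FPKM in OC and 0.663 ± 0.0737 FPKM in PAKG. Its libraries did not overlap, but the log2 fold change of 0.46 did not pass (limma adjusted p = 0.173, 0.15 with the block). Among the alternatives it passed only in limma without the mean-variance trend (adjusted p = 0.039). In bulk RNA, more cells of a type and more RNA per cell cannot be told apart for any of these chains.

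The 16 chains under the test level add little to the sums. In 11 of them no library exceeded 0.1 FPKM, and Col25a1 was listed at 0 in all libraries. Those 11 include Col10a1, the hypertrophic cartilage chain, at 0 to 0.03 FPKM, and Col14a1, a FACIT chain of tendon and skin, at 0 to 0.01 FPKM. At the estimated depth of 32300000 to 42300000 fragments a library, 1 fragment on a 5 kb transcript is worth 0.00473 to 0.00619 FPKM. Values are rounded to 2 decimals, so the lowest of these levels, such as those of Col14a1, rest on a few fragments. The 5 chains above 0.1 FPKM were Col9a2, Col9a3, Col20a1, Col23a1 and Col7a1. Col9a2, a FACIT chain of cartilage fibrils, had 0.02, 0.02 and 0 FPKM in OC and 0.21, 0.24 and 0.11 FPKM in PAKG, with no overlap. With no filter on low values it passed the test, with a log2 fold change of 1.31 on the log2(FPKM + 0.1) scale and a limma adjusted p of 0.027. Its partner Col9a3 had 0.21, 0.21 and 0.08 FPKM in OC and 0.35, 0.17 and 0.27 FPKM in PAKG, which overlapped. Col20a1 (0.09 to 0.18 FPKM in OC, 0.21 to 0.32 in PAKG), Col23a1 (0.02 to 0.09 in OC, 0.10 to 0.15 in PAKG) and Col7a1 (0.10 to 0.17 in OC, 0.11 to 0.21 in PAKG) did not pass.

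Ratios of chains that assemble together were taken within each library, where library scaling cancels, for 14 pairs. The length pattern of replicate 2 need not cancel where the partners differ in transcript length. Col6a3 (10106 nt) to Col6a1 (4100 nt), for example, was 0.416, 0.540 and 0.388 in OC replicates 1, 2 and 3. The ratio Col8a1 to Col8a2 was 0.640, 0.765 and 0.720 in OC replicates 1, 2 and 3 and 0.361, 0.403 and 0.357 in PAKG. The groups were far apart, and the change was the largest of the 14, with a log2 difference of -0.92 (exact permutation p = 0.1, the smallest possible, adjusted p = 0.233 over 14 pairs). The ratio Col1a1 to Col1a2, chains that combine in the type I trimer, was 1.74 ± 0.0705 in OC and 1.84 ± 0.0493 in PAKG (SD, n = 3). The groups overlapped (log2 difference 0.09, exact permutation p = 0.2), although the ratio was higher in PAKG in 3 of 3 same-numbered pairs.

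Other pairs without overlap, each at exact permutation p = 0.1, were Col4a1 to Col4a2 (0.712 ± 0.0409 in OC, 0.584 ± 0.0198 in PAKG), Col6a1 to Col6a2 (2.27 ± 0.0738 and 2.02 ± 0.0737), Col3a1 to Col1a1 (0.144 ± 0.00725 and 0.130 ± 0.00582) and Col4a5 to Col4a1 (2.77 ± 0.032 and 2.72 ± 0.00965). The last of these differed by only 0.02 on the log2 scale. The ratio Col11a1 to Col11a2 went from 42.3 ± 0.844 to 29.8 ± 1.15, but Col11a2 is so low that the log2 difference was -0.38 with a pseudocount of 0.1 and 0.03 with a pseudocount of 1. The remaining 7 pairs overlapped between the groups, among them Col5a1 to Col5a2 (log2 difference 0.11), Col12a1 to Col1a1 (-0.04) and Col6a3 to Col6a1 (-0.25, or -0.11 without OC replicate 2). Of the 8 overlapping pairs, Col1a1 to Col1a2 included, 6 differed in the same direction in all 3 same-numbered pairs, 3 higher and 3 lower in PAKG, each with an exact paired permutation p = 0.25, the smallest possible. Col5a1 to Col1a1 and Col6a3 to Col6a1 were among the lower ones.

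Of the genes that act on collagen chains, 53 were listed, 50 were in the tables and 42 were tested; 15 rose and 0 fell (limma, adjusted p under 0.05), against 5.97% and 8.73% of all genes, with a median log2 fold change of 0.15. At an unadjusted p under 0.05, 18 were higher and 2 lower, with the same background as for the chains. With the block 19 of the 42 were higher and 2 lower, against 12.3% and 17.1% of all genes, the lower ones being P4ha3 and P3h2, which were named after their values were seen. The counts by list that follow have the same background of 5.97% higher. Among hydroxylation and glycosylation genes, 4 of 13 rose. P3h4, a scaffold of the lysyl hydroxylase complex, went from 70.2 ± 5.71 to 98.0 ± 6.95 FPKM (log2 fold change 0.48, a call lost in 2 of the 6 fits without a library, adjusted p up to 0.0629), P3h3, its partner, rose by 0.48, and Plod2, the lysyl hydroxylase of telopeptides, by 0.44. P4hb, a subunit of prolyl 4-hydroxylase, was 489.8 ± 24.4 FPKM in OC and 489.7 ± 24.5 FPKM in PAKG, a value named after it was seen.

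Among folding and export genes 4 of 13 rose. Creb3l1, a transcription factor of the secretory pathway in osteoblasts that acts on type I collagen genes, had 49.6, 47.2 and 49.9 FPKM in OC and 108, 104 and 110 FPKM in PAKG. The groups were far apart and it was past 2-fold (log2 fold change 1.14, standard error 0.06, adjusted p = 0.000162). Sparc, a collagen-binding matrix protein, went from 989.8 ± 31.7 to 1533.6 ± 52.4 FPKM (log2 fold change 0.63), and Fkbp10, a procollagen chaperone, from 190 ± 12.0 to 242 ± 8.15 FPKM (0.34, a call lost in 4 of the 6 fits without a library, adjusted p up to 0.121). Serpinh1, the collagen chaperone Hsp47, had 646.7 ± 38.0 and 646.1 ± 16.8 FPKM, also named after its values were seen.

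Outside the cell, 3 of 5 procollagen cleavage genes rose: Pcolce2, an enhancer of C-propeptide removal (log2 fold change 0.96), Bmp1, the C-proteinase (0.69), and Adamts2, the N-proteinase (0.44, lost in 1 of the 6 fits without a library, adjusted p = 0.054). Of 4 crosslinking enzymes, Lox rose from 92.1 ± 5.82 to 127 ± 10.6 FPKM (log2 fold change 0.46, lost in 2 of the 6 fits, adjusted p up to 0.058), while Loxl1, Loxl3 and Loxl4 did not pass. Of 7 collagen receptors 3 rose: the integrin α-chains Itga10 (log2 fold change 1.1, past 2-fold) and Itga11 (0.50), and Mrc2, an uptake receptor for collagen fragments (0.39). Itga11 lost the call in 4 of the 6 fits without a library (adjusted p up to 0.162) and Mrc2 in 5 (adjusted p up to 0.156).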

How the data were processed

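Each library came as 1 table of FPKM deposited by the authors, all with the same 26187 genes. Reads were trimmed, aligned and assembled upstream (HISAT2, StringTie, cutadapt and FastQC stand in the submitters' processing notes, with DESeq2 and GRCm38); their versions and the strand setting are not given in those sources. FPKM are not counts, so the DESeq2 test of the study was not repeated. Values were taken as log2(FPKM + 0.1). limma 3.58.1 in R 4.3.3 compared the 12590 genes that averaged 0.5 FPKM or more (eBayes with trend, 2-sided, Benjamini-Hochberg over all 12590 genes, 3 against 3 libraries). The fit had 4 residual and 3.54 prior degrees of freedom. A fold change on this scale understates the change of low genes. Shares and ratios were compared by 2-sided exact permutation.

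The members, gene lists and tests were chosen with earlier results of these data known. Every tested chain was named, with its 6 values where its adjusted p was under 0.05 or its mean was at least 100 FPKM (values of Col12a1, Col8a1 and the low Col9 chains were added), and up to 3 genes of each pathway list that passed with the largest fold change, plus those past 2-fold. Depth was estimated from the FPKM steps of low genes, giving 32300000 to 42300000 fragments per library, with summed FPKM of 289676 to 325818; mitochondrial genes took 9.53% to 10.7% of it in PAKG and 10.8% to 11.9% in OC. Gene coordinates and lengths came from GENCODE M21 and promoters from RefSeq (GRCm38.p6). Whether replicate numbers pair the samples was checked by the correlation of their deviations (at least 0.1 in all 3 pairs). PAKG replicate 3 and OC replicate 1, with different numbers, also exceeded this (0.138). Neither labels nor paper say what the number marks. Calling was also tested on simulated data. These had independent genes and no replicate or length effect, so they do not cover the pattern of replicate 2, and the outcome is not given here. Alternatives were pseudocounts of 1 and 0.01, no filter or 1 FPKM, median-ratio scaling, TPM rescaling to a common total, no trend, the replicate block, each library left out, replicate 2 of both groups left out and, added after the data were seen, a transcript length adjustment (lowess, span 0.3) with and without the block. Figures were made in Python 3.11.15 with matplotlib 3.10.9.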

Additional observations from a re-analysis of the deposited data

How the results depend on the processing

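The chains Col8a2, Col27a1 and Col15a1, kept their call in each of the alternatives tried; the other 5 calls lost it in at least 1. The count of 7 higher chains became 4 with no filter (Col8a2, Col27a1, Col15a1 and Col9a2), where 39 chains were tested. It became 16 with the replicate block, 13 without replicate 2 of both groups, 16 with the transcript length adjustment and 16 with the block and that adjustment together. With no trend it stayed at 7, but Col17a1 was gained and Col16a1 lost. Over the fits that left out a library it ran from 3 to 12. It was 3 without PAKG replicate 3, OC replicate 1 or OC replicate 3, 4 without PAKG replicate 1 and 12 without OC replicate 2. The count of 1 lower chain became 0 with no filter and 0 with TPM rescaling, and ran from 0 to 1 over the fits without a library, with 0 without PAKG replicate 1 or 3 or OC replicate 1 or 2. The 2-fold count of 0 became 1 with no filter, 1 with TPM rescaling, 1 without replicate 2 of both groups, and 1 with the length adjustment with or without the block, and ran from 0 to 2 without a library, with 2 without OC replicate 2. Of the pathway genes, 8 to 16 were higher without a library, the lowest being without OC replicate 3, and the lower count of 0 became 1 with no trend, 2 with the block, 1 without replicate 2 of both groups, 1 with the length adjustment, 1 with both, and 0 to 1 without a library (1 without PAKG replicate 2). Shares of all genes are not given here for no filter, no trend, the length adjustment alone or the fits without a library. The same holds for the 2-fold counts of the alternatives. These counts of chains and pathway genes therefore do not show whether calls over all genes moved alike. The cause was not tested.

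The chains that changed sign lay near 0. Col6a3 was 0.01 with TPM rescaling, 0.01 without replicate 2 of both groups and 0.04 with the length adjustment, with or without the block; Col8a1 was 0.02 with TPM rescaling, 0.00 with median-ratio scaling and 0.03 with the length adjustment, with or without the block. Col4a1 was 0.02 with TPM rescaling, 0.00 with median-ratio scaling and 0.05 with the length adjustment, Col4a5 was 0.02 with the latter, in each case also with the block, and Col24a1 was -0.09 without replicate 2 of both groups. Over the fits without a library the log2 fold change ran from -0.21 to 0.18 for Col6a3, -0.09 to 0.04 for Col8a1, -0.18 to 0.07 for Col4a5, -0.16 to 0.09 for Col4a1, -0.11 to 0.22 for Col4a6 and -0.15 to 0.19 for Col24a1. The log2 ratio difference of Col11a1 to Col11a2 was 0.03 with a pseudocount of 1, and that of Col12a1 to Col1a1 ran from -0.2 to 0.07 without a library. The other ratios and all 6 shares kept their direction and their side of the threshold, which 3 against 3 libraries, with a smallest p of 0.1 (0.25 when paired), could not pass.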
